A study of Homo sapiens with 24 samples.

Results

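The comparison described here is that of SAS cells carrying the E79Q form of NRF2 with SAS cells carrying wild-type (WT) NRF2, where both had received the glutaminase inhibitor CB-839 at 0.1 µM and no radiation. SAS is an established line from a human oral squamous cell carcinoma. The 6 libraries were chosen by their labels alone, 3 labelled SAS-Nrf2E79Q with CB-839 and 3 labelled SAS WT with CB-839, out of 24 libraries in 8 groups of 3. The other groups are the same 2 genotypes untreated (vehicle), irradiated at 4 Gy, and irradiated at 4 Gy after CB-839. Only the untreated and the irradiated CB-839 groups are used below, for the test of whether the genotype difference depended on treatment. Irradiated cells had received drug or vehicle 24 h before the dose, and their RNA was collected 24 h later. A pretreatment of 24 h is also recorded for the 6 unirradiated CB-839 libraries. The time of collection of the unirradiated cells, the way in which the E79Q allele was introduced and whether the E79Q cells are 1 clone are not stated in the labels. A difference between the genotypes therefore cannot be told apart from a difference between the cell populations that carry them.

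NRF2, encoded by NFE2L2, is a transcription factor that KEAP1 normally marks for degradation. E79Q alters the motif through which KEAP1 grips NRF2, so that the protein escapes and keeps antioxidant, detoxifying and glutathione genes switched on. CB-839 blocks glutaminase, the enzyme that turns glutamine into glutamate. Glutamate is needed for glutathione, for the synthesis of several amino acids and as the molecule that the cystine transporter SLC7A11 exports in exchange for cystine. Cells short of amino acids, or with misfolded protein in the endoplasmic reticulum, raise translation of the transcription factor ATF4, which induces amino acid synthesis, transport and tRNA charging genes.

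The 6 libraries held between 14285084 and 18037051 counts, and mitochondrially encoded genes took 2.38% to 3.06% of them. The 3 WT libraries lay between 17579548 and 18037051 counts and the 3 E79Q libraries between 14285084 and 17673626. Levels are given as CPM, a gene's counts scaled to a common library size. Across genes, which are not independent replicates, Pearson's r of log2 CPM was 0.988 to 0.990 within the groups and 0.983 to 0.985 between them. WT library 3 deviated from its group along gene GC content (r 0.18 across genes), and without it the test below called 1743 genes in place of 2396. Untreated E79Q library 1 and, in the irradiated CB-839 groups, WT library 1 and E79Q library 2 deviated the same way (r 0.17, 0.26 and 0.48). In the latter groups WT library 2 and E79Q libraries 1 and 3 deviated the opposite way (r -0.17, -0.38 and -0.16). The 4 libraries named for a positive r, WT library 3 among them, are called below the 4 libraries that followed GC content. Leaving out only these, and not those with a negative r, was an alternative chosen after seeing the data. The test then called 2981 genes. All 8 markers of a squamous epithelial line that were looked for, among them KRT5, KRT18, TP63 and EPCAM, were detected, 6 of them at lower levels in E79Q cells. Of 15 markers of immune, endothelial and fibroblast cells, 6 passed the filter on low counts and none was called between the genotypes under CB-839. Their summed level was 6.98 to 8.18 CPM in the WT and 5.79 to 6.21 CPM in the E79Q libraries. Between the untreated genotypes 1 of the 6 was called higher, the collagen gene COL1A1, at 6.21 ± 0.457 CPM in WT and 14.4 ± 13.1 in E79Q cells (mean ± SD, n = 3, log2 fold change 1.21, adjusted p = 0.00851), and 2 lower, CD14 and VWF. The COL1A1 difference under CB-839 was -1.58 from that one (adjusted p = 0.042). Without untreated E79Q library 2 these values were 0.15 (adjusted p = 0.561) and -0.53 (adjusted p = 0.12). The part of other cells in the results was not tested. PTPRC, CD3E, DCN and LUM had no read in any of the 6 libraries. The labels do not say whether the replicates were separate cultures, so p-values measure only the spread between these samples. Counts of near-identical genes, for example AKR1C1 with AKR1C2 and CXCL1 with CXCL3, may be split unevenly and are uncertain. In these bulk samples, fewer cells of a kind and less RNA per cell cannot be told apart.

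Of 15956 genes tested, 2396 (15%) differed between the genotypes under CB-839, 1324 (8.3%) higher and 1072 (6.72%) lower in E79Q cells. Scaled by total counts instead, the test called 1583 higher and 772 lower, and 1556 higher and 1794 lower with offsets for each library's trend along GC content. Calls are those of edgeR's quasi-likelihood test with an adjusted p (Benjamini-Hochberg) under 0.05. The differences over 2-fold were mostly increases, 246 against 87. Of the 1324 genes called higher, 409 (30.89%) were also called higher in E79Q cells without the drug, and 166 were called lower there. Of the 1072 called lower, 365 (34.05%) were called lower without the drug and 173 higher. Between the untreated genotypes 3149 genes (19.7%) were called, 1535 (9.62%) higher and 1614 (10.1%) lower in E79Q cells, or 2430 higher and 1849 lower with the GC offsets. The remaining 1283 genes (53.55% of the calls under CB-839) were not among them, which does not show that they were equal there. The difference under CB-839 and that in untreated cells share no library and were tested against each other. That test called 2280 genes (14.3%): for 1190 (7.46%) the E79Q minus WT difference was higher under CB-839 than in untreated cells, and for 1090 (6.83%) it was lower. The split was 1508 higher and 766 lower with total count scaling, and 1402 higher and 2088 lower with the GC offsets. Each count of list members below is to be read beside the share of all genes in the same test and direction.

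The 12 largest changes in each direction were taken among called protein-coding genes whose 2 groups did not overlap. Their log2 CPM averaged at least 1 over all 24 libraries, so a gene low in 1 genotype could pass through the other. ANGPTL4, a secreted inhibitor of lipoprotein lipase, was at 1.18, 0.572 and 0.507 CPM in the WT libraries and 5.65, 3.63 and 4.30 in the E79Q libraries (log2 fold change 2.57, SE 0.30, adjusted p = 3.67e-07). Its level was low in all 6 libraries. SEL1L3, a transmembrane protein related to the degradation adaptor SEL1L, was at 9.65, 9.09 and 7.71 CPM in WT and 43.2, 41.7 and 36.9 in E79Q libraries (2.20, SE 0.10). Its genotype difference was 0.08 in untreated cells (adjusted p = 0.654), and the 2 differences were 2.12 apart (SE 0.14, adjusted p = 4.08e-11). SPP1, the secreted phosphoprotein osteopontin, was low too, at 0.903, 0.686 and 1.01 CPM in WT and 4.90, 4.80 and 3.26 in E79Q libraries (2.29, SE 0.22). The aldo-keto reductases AKR1C1 (2.25) and AKR1C2 (2.05), SCG5, a chaperone of secretory granules (2.16), MAP1B, a microtubule-associated protein (2.09), HKDC1, a hexokinase (2.06), and TLR4, the lipopolysaccharide receptor (1.93), were higher as well. HKDC1 was also low, at 0.339, 0.400 and 0.901 CPM in WT and 2.55, 2.77 and 1.66 in E79Q libraries (SE 0.30). TNFSF18, the ligand of GITR, was at 3.05, 2.29 and 2.48 CPM in WT and 9.38, 11.8 and 10.7 in E79Q libraries (2.03, SE 0.16). CHAC1 and SLC6A9, described below, complete the 12 largest. Many of the 12 also differed without the drug. In untreated cells the log2 fold change was 2.89 for AKR1C1, 2.76 for AKR1C2, 2.71 for SPP1 and 2.47 for TLR4. It was 2.35 for HKDC1, 2.33 for SCG5, 1.35 for MAP1B and 0.55 for TNFSF18. All of these were called higher there. ANGPTL4 was not called there (0.33, adjusted p = 0.66), and CHAC1 (-0.69) and SLC6A9 (-1.06) were lower.

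The largest decrease was that of ELF3, an epithelial transcription factor of the ETS family, at 18.4, 17.0 and 21.8 CPM in WT and 3.93, 4.25 and 5.19 in E79Q libraries (-2.09, SE 0.11, adjusted p = 1.04e-13). The next were NGFR, the low-affinity neurotrophin receptor (-2.03), VGLL2, a TEAD cofactor (-2.00), AQP3, a water and glycerol channel (-1.99), and COL12A1, a fibril-associated collagen (-1.96). ABCA1, which exports cholesterol (-1.96), SCD, which desaturates fatty acids (-1.74), and IGFBP3, which binds insulin-like growth factors (-1.84), were lower too. The kallikreins KLK10 (-1.81) and KLK13 (-1.74), OTUD1, a deubiquitinase (-1.73), and VSIR, the checkpoint ligand VISTA (-1.66), were the others. All 12 were also called lower between the untreated genotypes. There IGFBP3 differed by -3.60, NGFR by -2.34, KLK10 by -2.17, COL12A1 by -1.85, KLK13 by -1.80 and VGLL2 by -1.68. ELF3 and OTUD1 differed by -1.64, AQP3 by -1.57, SCD by -1.18, ABCA1 by -1.14 and VSIR by -1.04.

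**Figure D1:**
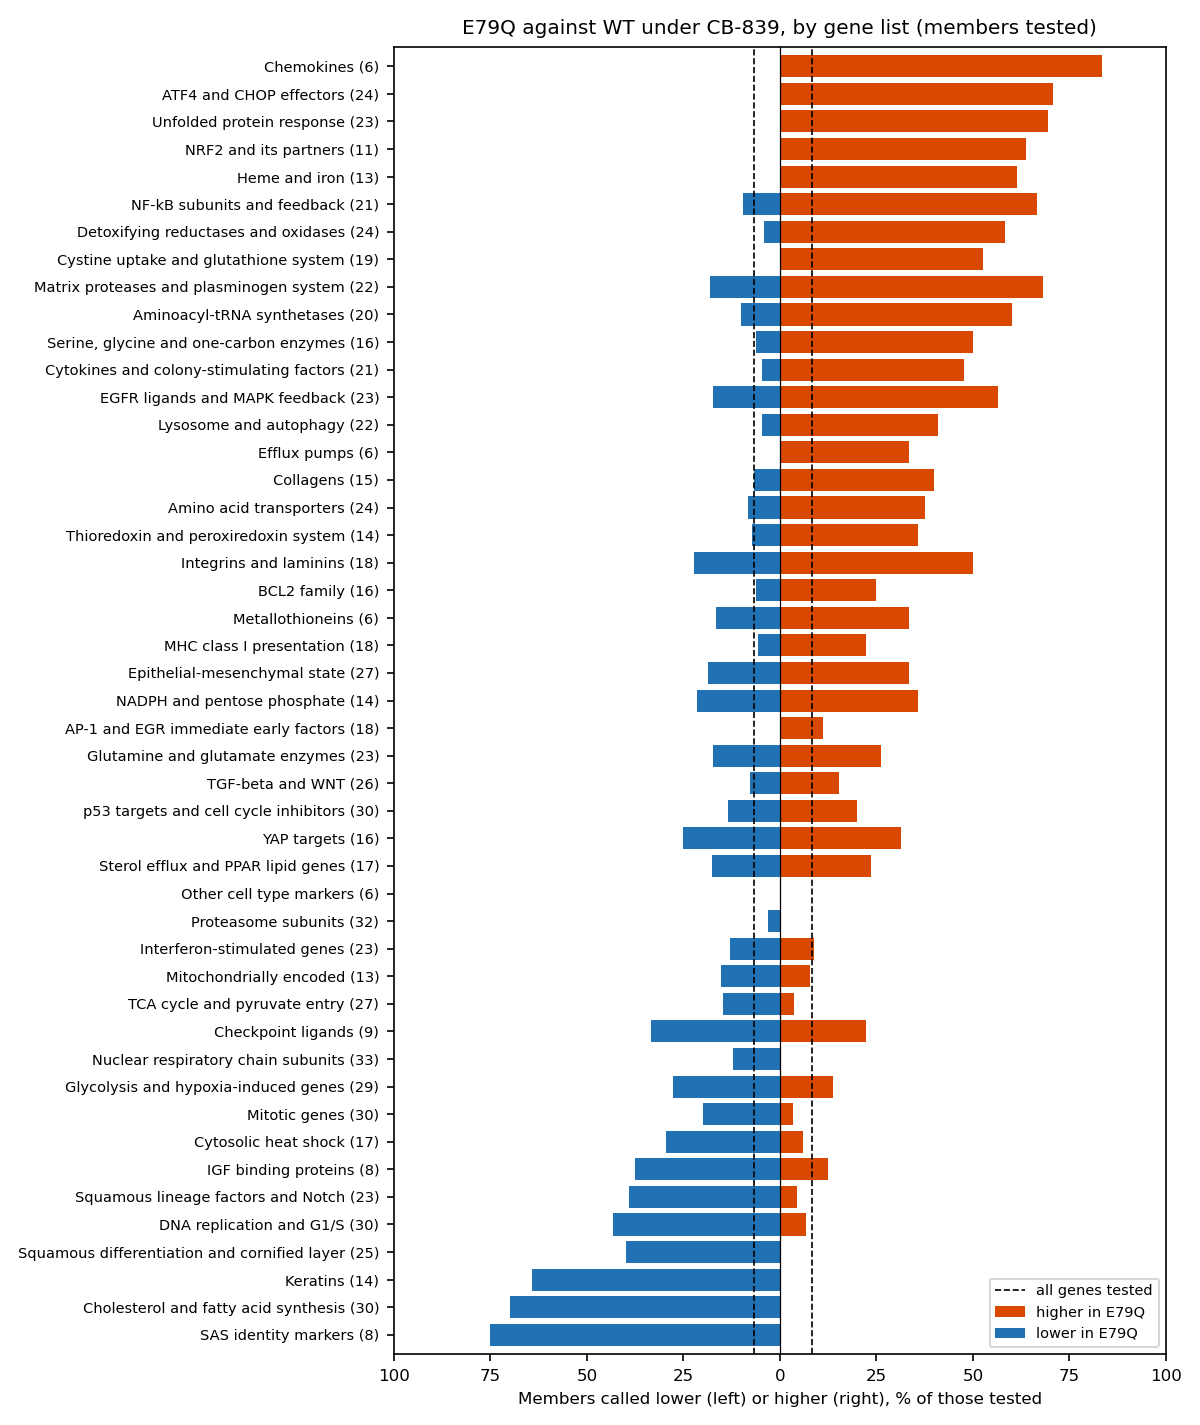
Share of the tested members of each gene list called higher (right) or lower (left) in E79Q than in WT cells under CB-839, in percent, with dashed lines at the shares over all 15956 genes (8.3% higher, 6.72% lower). The ATF4 and CHOP list has 17 of 24 members higher and none lower, and the cholesterol and fatty acid list 21 of 30 lower and none higher.

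Among NRF2 and its partners, 7 of 11 members were higher in E79Q cells, where 8.3% of all genes were, and none was lower. NFE2L2 itself was at 145, 143 and 136 CPM in WT and 133, 136 and 125 in E79Q libraries (-0.11, adjusted p = 0.318). Gene counts do not show which allele was read, so this does not check the genotype labels. Without the 4 libraries that followed GC content NFE2L2 was called lower (-0.13, adjusted p = 0.0388). KEAP1, the adaptor that targets NRF2 to the proteasome, was at 72.4, 71.8 and 83.6 CPM in WT and 91.8, 91.5 and 91.1 in E79Q libraries (0.27, SE 0.067, adjusted p = 0.0057). That difference was smaller than the one in untreated cells, which was 0.57 (difference -0.30, SE 0.094, adjusted p = 0.0285). The KEAP1 call under CB-839 was lost without WT library 1 (adjusted p = 0.0561) or 2 (adjusted p = 0.0694). That of the difference was lost in 7 of the 12 fits that left out 1 library, with adjusted p up to 0.12. SQSTM1, the autophagy receptor p62 that also binds KEAP1, was at 212, 229 and 237 CPM in WT and 518, 479 and 511 in E79Q libraries (1.15, SE 0.063, adjusted p = 1.51e-13). MAFG, the small MAF protein that pairs with NRF2 on DNA, was higher (0.73), as was BACH1, the repressor of the same sites (0.54).

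The list of cystine uptake and of glutathione synthesis, use and breakdown held 19 tested genes. Of these 10 were higher and none lower in E79Q cells (median log2 fold change 0.27, against 0.0097 over all genes tested). Among the 10 was CHAC1, which cleaves glutathione and is counted again in the ATF4 list below. SLC7A11, the cystine-glutamate exchanger, was at 174, 169 and 147 CPM in WT and 514, 552 and 516 in E79Q libraries (3.23-fold). Its partner chain SLC3A2 was not called, at 891, 872 and 948 CPM in WT and 1003, 942 and 983 in E79Q libraries (0.11, adjusted p = 0.144), but was called higher without the 4 libraries that followed GC content (0.14, adjusted p = 0.00228). Both subunits of glutamate-cysteine ligase, which makes the first step of glutathione, were higher: the catalytic GCLC by 0.76 (SE 0.072) and the modifier GCLM by 0.27 (SE 0.052) on the log2 scale. GSR, which reduces oxidised glutathione, differed by 0.35, and GLRX, a glutaredoxin, by 0.88. GPX2, a glutathione peroxidase of epithelia, was at 7.22, 8.75 and 9.74 CPM in WT and 23.6, 16.7 and 19.5 in E79Q libraries (1.21), whereas in untreated cells its difference was 1.99 (difference -0.78, adjusted p = 0.0074). GPX4, which reduces lipid peroxides, overlapped between the groups (0.065, adjusted p = 0.62) and was called higher without the 4 libraries that followed GC content (0.13, adjusted p = 0.0416).

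Within the thioredoxin system 5 of 14 genes were higher and 1 was lower, against 8.3% and 6.72% of all genes. TXNRD1, the cytosolic thioredoxin reductase, was at 871, 909 and 924 CPM in WT and 1519, 1494 and 1439 in E79Q libraries (0.72, SE 0.046, adjusted p = 3.25e-12). SRXN1, which repairs peroxiredoxins, differed by 0.86 (SE 0.10), although 85.0% of its exonic bases are shared with another annotated gene on the same strand, where reads can be lost in counting. TXNRD1 and SRXN1 differed by nearly the same amounts in untreated cells, 0.73 and 0.86. TXNIP, a thioredoxin-binding protein that limits glucose uptake, was at 17.8, 15.9 and 16.9 CPM in WT and 31.0, 34.2 and 28.5 in E79Q libraries (0.89, SE 0.088). In untreated cells TXNIP was lower in E79Q cells (-0.62), and the difference of the 2 was 1.51 (SE 0.13, adjusted p = 1.8e-09). TXN, thioredoxin itself, was at 277, 301 and 312 CPM in WT and 389, 362 and 335 in E79Q libraries (0.29, SE 0.061).

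Of 24 reductases and oxidases that detoxify carbonyls, quinones and xenobiotics, 14 were higher and 1, AKR1A1, was lower (median 0.55, AKR1A1 -0.22). The call of AKR1A1 was lost without WT library 1 or 3 or E79Q library 2 or 3 (adjusted p up to 0.175). Without the drug 14 of the 24 were higher and 2 lower (median 0.44), against 9.62% and 10.1% of all genes. AKR1C1 was at 9.14, 9.32 and 12.2 CPM in WT and 51.8, 44.7 and 50.1 in E79Q libraries, and AKR1C3 at 4.85, 5.43 and 5.85 and 20.1, 17.4 and 14.7. OSGIN1, an NRF2-induced growth inhibitor, was at 9.37, 8.69 and 11.2 CPM in WT and 25.4, 25.2 and 27.9 in E79Q libraries (1.42, SE 0.10). NQO1, the quinone reductase used as a standard read-out of NRF2, was at 326, 355 and 402 CPM in WT and 672, 604 and 598 in E79Q libraries (0.79, SE 0.066, adjusted p = 5.27e-10). For these 4 genes every E79Q library lay above every WT library, as for 17% of all genes. For AKR1C1 this was also required by the rule for the largest changes above. AKR1C1 differed less between the genotypes under CB-839 than in untreated cells (difference -0.64, SE 0.15, adjusted p = 0.00311). For NQO1 the difference of the differences was 0.062 (SE 0.092, adjusted p = 0.727), and 0.17 without the 4 libraries that followed GC content, where it was called (adjusted p = 0.0383).

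The antioxidant response element, TGACNNNGC on either strand, was searched in the 250 bases before the RefSeq gene start, since many of these genes were higher together. Of the 57 tested genes of the glutathione, thioredoxin and detoxifying lists, 46 had an entry in the RefSeq table (GRCh38.p14). The motif was in 4 of 24 that were higher under CB-839 (16.7%), in 4 of the 22 others (18.2%) and in 11% of all 27305 promoters of the table. Shown are 2 of the 4 that were higher and hold it, TXNRD1 (chr12:104215529-104215778, plus strand) and CYP4F11, a fatty acid hydroxylase at 0.96 (chr19:15934868-15935117, minus strand), 5′ to 3′ with the motif in capitals.
TXNRD1: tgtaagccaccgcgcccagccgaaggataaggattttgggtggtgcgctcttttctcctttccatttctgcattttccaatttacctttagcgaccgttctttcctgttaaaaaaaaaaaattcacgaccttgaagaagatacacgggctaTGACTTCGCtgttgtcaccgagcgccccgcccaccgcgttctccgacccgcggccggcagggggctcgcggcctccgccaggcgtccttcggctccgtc
CYP4F11: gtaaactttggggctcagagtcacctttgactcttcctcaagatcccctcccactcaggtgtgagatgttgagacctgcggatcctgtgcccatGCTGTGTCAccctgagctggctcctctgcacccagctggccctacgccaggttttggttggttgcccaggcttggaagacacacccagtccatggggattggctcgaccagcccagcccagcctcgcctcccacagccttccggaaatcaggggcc
In CYP4F11 the motif lies on the opposite strand. The match describes these letters only.

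Iron and heme genes were higher in 8 of 13 cases and lower in none. FTL, the ferritin light chain, was at 1364, 1435 and 1709.8 CPM in WT and 2809, 2654 and 2636 in E79Q libraries (0.85, SE 0.077), and FTH1, the heavy chain, at 456, 474 and 540.1 and 802, 746 and 804 (0.68, SE 0.063). HMOX1, which breaks down heme, was low, at 1.97, 2.29 and 2.08 CPM in WT and 4.69, 3.32 and 4.69 in E79Q libraries (1.0, adjusted p = 0.000528). FTH1 and HMOX1 did not pass between the untreated genotypes, at 0.13 and -0.17, and their difference was larger under CB-839 by 0.55 (adjusted p = 8.59e-05) and 1.17 (adjusted p = 0.00281). Of the exonic bases of FTH1, 62.4% are also covered by another annotated gene on either strand.

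Of 14 enzymes that make or use NADPH, 5 were higher and 3 lower, and 3 higher and 2 lower without E79Q library 3. PGD, of the oxidative branch of the pentose phosphate route, differed by 0.29 (SE 0.06), and TALDO1, of the non-oxidative branch, by 0.35. IDH1, the cytosolic isocitrate dehydrogenase, was lower, at 89.8, 89.8 and 88.2 CPM in WT and 54.5, 58.6 and 55.0 in E79Q libraries (-0.67, SE 0.056). Among 6 efflux pumps 2 were higher, ABCC3 by 1.02 (SE 0.11) and ABCC2 by 0.85, the latter no longer called without WT library 2 (adjusted p = 0.0565).

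ATF4 and CHOP effectors were higher in E79Q cells under CB-839, and more often lower without it. Of 24 tested genes, 17 were higher and none lower in E79Q cells under CB-839 (median 0.65), whereas 2 were higher and 11 lower between the untreated genotypes (median -0.33), where 9.62% and 10.1% of all genes were. In the test of the 2 differences, 18 of the 24 had a higher genotype difference under CB-839, against 7.46% of all genes, and 1, ATF5, a lower one (-0.89, adjusted p = 0.000158). CHAC1, which cleaves glutathione, was at 2.60, 4.80 and 4.50 CPM in WT and 18.9, 17.1 and 16.4 in E79Q libraries (4.39-fold, log2 fold change 2.14, SE 0.16, adjusted p = 9.38e-11). TRIB3, a pseudokinase that restrains ATF4, was at 44.0, 44.2 and 48.3 CPM in WT and 96.4, 96.7 and 96.4 in E79Q libraries (1.08, SE 0.07, adjusted p = 5.1e-12). DDIT3, which encodes CHOP, was at 4.57, 4.17 and 4.62 CPM in WT and 9.51, 9.91 and 9.27 in E79Q libraries (1.10, SE 0.15). Every E79Q library stood above every WT library for these 3 genes, as for 17% of all genes. For CHAC1 this was also required by the rule for the largest changes above. ATF4 mRNA was at 181, 185 and 185 CPM in WT and 316, 284 and 279.6 in E79Q libraries (0.67, SE 0.061, adjusted p = 2.7e-09). SESN2, a leucine sensor upstream of mTORC1, differed by 1.05 (SE 0.10), and the secreted glycoprotein STC2 was at 100.1, 104 and 109.8 CPM in WT and 252, 239 and 243 in E79Q libraries.

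Set beside the untreated cells, the levels differ between the 4 groups as follows. CHAC1 averaged 18.2 ± 0.491 CPM in untreated WT cells and 3.97 ± 1.20 in WT cells with CB-839 (mean ± SD, n = 3 in each group). In E79Q cells it averaged 11.3 ± 1.30 CPM untreated and 17.5 ± 1.27 with CB-839. TRIB3 averaged 87.1 ± 2.72 CPM in untreated and 45.5 ± 2.44 in drug-treated WT cells, against 64.5 ± 5.63 and 96.5 ± 0.146 in E79Q cells. For ATF4 the 4 means were 384 ± 21.6 and 184 ± 2.11 CPM in WT and 286 ± 15.1 and 293 ± 20.1 in E79Q cells. All 3 genes had their lowest mean in WT cells that had received CB-839. The difference of the genotype differences was 2.82 for CHAC1 (SE 0.21, adjusted p = 2.53e-10), 1.52 for TRIB3 (adjusted p = 2.25e-11), 1.49 for DDIT3 (adjusted p = 9.56e-06) and 1.10 for ATF4 (adjusted p = 4.44e-10).

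DDIT4, an inhibitor of mTORC1, followed another course. It was at 21.6, 20.3 and 22.8 CPM in WT and 25.5, 19.4 and 25.4 in E79Q libraries under CB-839 (0.12, adjusted p = 0.48), and the groups overlapped. In untreated WT cells it averaged 107 ± 3.41 CPM, against 22.9 ± 0.631 in untreated E79Q cells, and the difference of the differences was 2.35 (SE 0.13, adjusted p = 2.25e-12). Another annotated gene on either strand also covers 41.2% of the exonic bases of DDIT4 and 39.6% of those of DDIT3. GDF15, a stress-induced cytokine of the TGF-beta family, was at 4.17, 5.03 and 4.33 CPM in WT and 7.65, 5.35 and 6.79 in E79Q libraries (0.54, adjusted p = 0.0066), a call lost without E79Q library 1 (adjusted p = 0.064). Without the drug GDF15 averaged 21.4 ± 1.08 CPM in WT and 5.25 ± 0.310 in E79Q cells. PPP1R15A, which lets translation resume after stress, was at 41.0, 50.1 and 49.9 CPM in WT and 104, 92.3 and 96.6 in E79Q libraries (1.05, SE 0.073). INHBE, an activin chain, was higher from very low levels, at 0.226, 0.572 and 0.394 and 3.59, 1.72 and 1.93 CPM (2.57, SE 0.43), and ATF3, another stress factor, at 0.846, 1.14 and 1.18 and 2.41, 1.91 and 3.20 (1.25, SE 0.26).

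**Figure D2:**
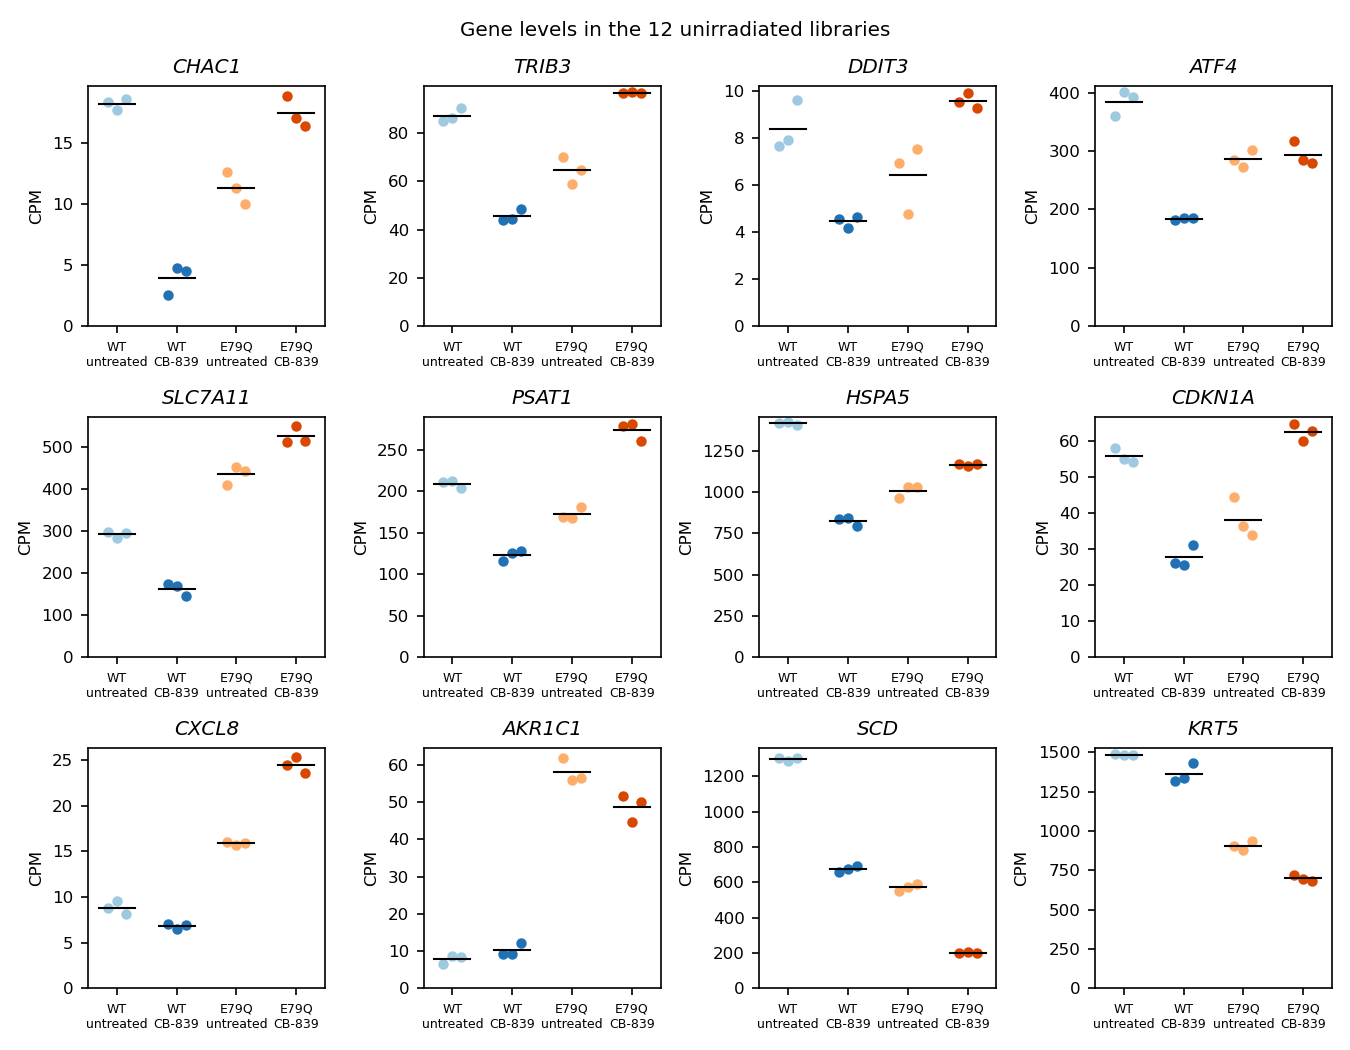
CPM of 12 genes in each of the 12 unirradiated libraries (linear axis from 0), by group, with 1 point per library and a bar at the mean of 3. CHAC1, TRIB3, ATF4 and HSPA5 have their lowest mean in WT cells with CB-839, AKR1C1 is higher in both E79Q groups, and SCD is lowest in E79Q cells with CB-839.

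Genes that charge tRNA with amino acids were higher in 12 of 20 cases and lower in 2 under CB-839 (median 0.34), while without the drug 5 were higher and 6 lower, or 3 and 4 without untreated WT library 3. CARS, for cysteine, was at 36.7, 32.4 and 39.2 CPM in WT and 72.0, 74.0 and 72.4 in E79Q libraries (1.01, SE 0.07, adjusted p = 1.95e-11). The enzymes for methionine (MARS, 0.74), tryptophan (WARS, 0.69), glycine (GARS, 0.69), tyrosine (YARS, 0.64), serine (SARS, 0.54) and alanine (AARS, 0.54) followed. KARS, for lysine, was lower (-0.21, SE 0.044). QARS, for glutamine, was at 188, 181 and 191 CPM in WT and 194, 198 and 189 in E79Q libraries (0.052, adjusted p = 0.661). Tested against the untreated difference, 11 of the 20 were higher under CB-839 and 5 lower, against 7.46% and 6.83% of all genes, with 1.39 for CARS (SE 0.10, adjusted p = 9.8e-11) and -0.42 for KARS (SE 0.062, adjusted p = 2.64e-05).

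Of 24 amino acid transporters 9 were higher and 2 lower. SLC6A9, a glycine transporter, was at 2.43, 2.12 and 2.87 CPM in WT and 11.8, 9.84 and 10.3 in E79Q libraries (4.28-fold, 2.10, SE 0.16). It averaged 10.2 ± 0.357 CPM in untreated and 2.47 ± 0.380 in drug-treated WT cells, against 4.89 ± 0.946 and 10.6 ± 1.02 in E79Q cells. The genotype difference of SLC6A9 was -1.06 without the drug, and the one under CB-839 exceeded it by 3.16 (SE 0.22, adjusted p = 8.07e-11). SLC1A4, which carries alanine, serine and cysteine, was at 4.01, 3.54 and 3.77 CPM in WT and 10.2, 11.7 and 11.4 in E79Q libraries (1.56, SE 0.19). SLC1A5, the main glutamine importer, was at 173, 161 and 165 CPM in WT and 283, 269 and 278 in E79Q libraries (0.73, SE 0.054, adjusted p = 5.61e-11), and the glutamine transporter SLC38A1 differed by 0.43. SLC7A5, the leucine exchanger, was at 3590.0, 3480.4 and 3771 CPM in WT and 3293, 3222 and 3386 in E79Q libraries (-0.13, adjusted p = 0.06), and was called without WT library 2 (adjusted p = 0.0429). SLC1A3, a glutamate and aspartate importer, was lower (-0.47), as was SLC38A4 (-0.77). For SLC7A11 the untreated difference was 0.57, and the one under CB-839 was larger by 1.12 (SE 0.17, adjusted p = 2.86e-05).

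Serine, glycine and folate-cycle enzymes were higher in 8 of 16 cases and lower in 1. PHGDH, PSAT1 and PSPH carry out the 3 steps of serine synthesis, of which the PSAT1 step consumes glutamate. PSAT1 was at 116, 126 and 128 CPM in WT and 279, 281 and 261 in E79Q libraries (1.15, SE 0.049, adjusted p = 9.48e-16), PHGDH at 222, 222 and 245 and 419, 405 and 415 (0.85, SE 0.066), and PSPH differed by 0.33. ALDH1L2, the mitochondrial formyl-tetrahydrofolate dehydrogenase, was at 19.2, 17.7 and 16 CPM in WT and 52.7, 53.1 and 52.6 in E79Q libraries (1.58, SE 0.12). CBS, the first enzyme of transsulfuration, was low but higher in E79Q cells, at 0.959, 0.972 and 0.563 and 3.17, 2.09 and 3.04 CPM (1.73). The difference exceeded that of untreated cells by 1.43 for PSAT1 (adjusted p = 1.19e-13), 1.26 for PHGDH (adjusted p = 1.67e-10) and 2.35 for ALDH1L2 (adjusted p = 1.31e-10).

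Among 23 genes of glutamine and glutamate metabolism 6 were higher and 4 lower. GLUL, which makes glutamine from glutamate, was lower, at 212, 219.8 and 214 CPM in WT and 162, 154 and 167 in E79Q libraries (-0.42, SE 0.049, adjusted p = 3.25e-07). GLUD1, glutamate dehydrogenase, differed by -0.10 (adjusted p = 0.208). The transaminase GPT2 was at 42.1, 42.4 and 45.5 CPM in WT and 82.9, 74.3 and 81.3 in E79Q libraries (0.87, SE 0.077), and PYCR1, of proline synthesis, at 29.3, 30.8 and 32.2 and 60.3, 58.6 and 63.9 (0.99, SE 0.078). ASNS, asparagine synthetase, was at 1.41, 0.800 and 1.35 CPM in WT and 4.55, 4.00 and 3.09 in E79Q libraries (1.69, SE 0.26). Since 44.6% of its exonic bases are shared with another annotated gene on the same strand, its level is uncertain. Of 27 genes of the TCA cycle and pyruvate entry 1 was higher and 4 were lower, against 8.3% and 6.72% of all genes. The higher one was PCK2, which makes phosphoenolpyruvate in mitochondria. It was at 26.2, 28.0 and 26.8 CPM in WT and 66.8, 52.0 and 64.8 in E79Q libraries (1.18, SE 0.088). CS (-0.31), PC (-0.33), OGDH (-0.24) and PDHB (-0.24) were lower, PDHB no longer without WT library 3 or E79Q library 2 or 3 (adjusted p up to 0.18) or without the 4 libraries that followed GC content (adjusted p = 0.0706).

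The C/EBP-ATF response element, TGATGNAA on either strand, was searched in the same windows. Of the 83 genes of the ATF4, synthetase, transporter and serine lists, 65 had a promoter in the table. The motif was in 5 of the 36 that were higher under CB-839 (13.9%), in 1 of the 29 others (3.4%) and in 3.2% of all promoters.

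**Figure D3:**
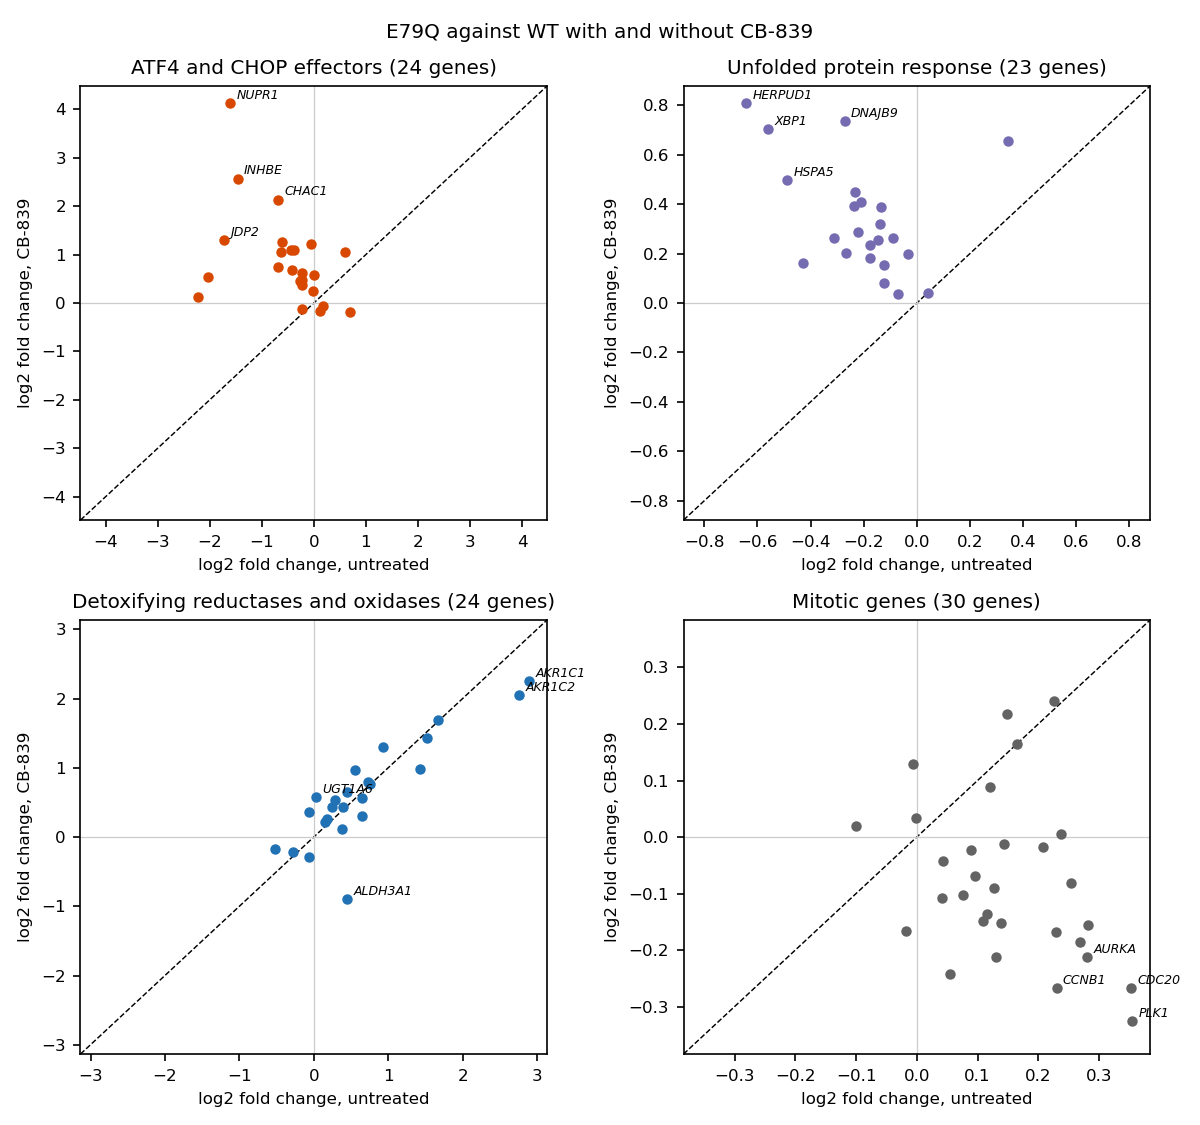
Log2 fold change of E79Q against WT in untreated cells (horizontal) and under CB-839 (vertical) for the members of 4 gene lists, 1 point per gene, with the diagonal of equal differences. Of 24 ATF4 genes 21 and of 23 unfolded protein response genes 22 lie above the diagonal, as do 15 of 24 detoxifying and 5 of 30 mitotic genes.

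Genes of the unfolded protein response were higher in E79Q than in WT cells in 16 of 23 cases under CB-839, and lower in none (median 0.26). Between the untreated genotypes 1 was higher and 9 were lower (median -0.18). HSPA5, the main chaperone of the endoplasmic reticulum, was at 837, 839.6 and 797 CPM in WT and 1168, 1154 and 1168 in E79Q libraries (0.50, SE 0.042, adjusted p = 6.08e-10). Without the drug HSPA5 was at 1419, 1422 and 1404 CPM in WT and 963, 1033 and 1029 in E79Q libraries. Its level in E79Q cells with CB-839 was thus below that in untreated WT cells. HERPUD1, of the degradation complex, was at 25.3, 26.5 and 28.5 CPM in WT and 47.1, 47.4 and 46.5 in E79Q libraries (0.81, SE 0.074), and XBP1, the transcription factor spliced by IRE1, at 40.2, 37.9 and 41.9 and 72.5, 62.3 and 60.8 (0.70, SE 0.083). For 19 of the 23 genes the genotype difference under CB-839 was higher than in untreated cells, against 7.46% of all genes, and for none lower. The difference of the differences was 1.45 for HERPUD1 (adjusted p = 9.8e-11), 1.26 for XBP1 (adjusted p = 1.27e-08) and 0.99 for HSPA5 (adjusted p = 4.7e-12). ATF6 did not pass (0.039, adjusted p = 0.732).

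Of 17 cytosolic chaperones 1 was higher and 5 were lower, and 9 were lower without the 4 libraries that followed GC content. HSP90AB1, an HSP90 isoform, was at 3483, 3600.3 and 3652 CPM in WT and 2783, 2822 and 2797 in E79Q libraries (-0.35, SE 0.033), HSPA8 differed by -0.26 and HSPB1 by -0.39. Of 32 proteasome subunits 1 was lower, against 6.72% of all genes, and none higher, with 0 to 3 lower when 1 library was left out. In untreated E79Q cells 10 were higher, against 9.62% of all genes, and 19 without the 4 libraries that followed GC content. The difference of the differences was below 0 and called for 11 of the 32, against 6.83% of all genes, and above 0 and called for none. Of 22 lysosome and autophagy genes 9 were higher and 1 was lower. Besides SQSTM1 these included WIPI1, a phosphoinositide reader of autophagosomes (1.18), ULK1, the initiating kinase (0.40), GABARAPL1, of the ATG8 family (0.39), and CTSB, cathepsin B (0.44).

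CDKN1A, the cell cycle inhibitor p21, was at 26.3, 25.7 and 31.2 CPM in WT and 64.8, 60.2 and 62.8 in E79Q libraries, and averaged 55.9 ± 1.98 CPM in untreated WT and 38.2 ± 5.51 in untreated E79Q cells. Its genotype difference was 1.17 with the drug and -0.55 without it, with a difference of 1.72 (SE 0.12, adjusted p = 9.8e-11). Of all 30 p53 targets and cell cycle inhibitors 6 were higher and 4 lower, against 8.3% and 6.72% of all genes. MDM2, the ligase of p53, differed by 0.12 (adjusted p = 0.424). Of 16 genes of the BCL2 family, which set the threshold of cell death, 4 were higher and 1 was lower, against the same shares. Without WT library 2 or 3 or E79Q library 1 or 3, 3 were higher and none lower. The death-promoting BMF (1.03, SE 0.22) and PMAIP1 (0.65, SE 0.08) were among those higher.

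Of 30 mitotic genes 6 were lower and 1 higher, and 4 were lower without WT library 3, with PLK1, a mitotic kinase, at 160.2, 160.0 and 172 CPM in WT and 132, 129.5 and 132 in E79Q libraries (-0.33, SE 0.064) and CDC20, an activator of the anaphase-promoting complex, at -0.27. In untreated cells 11 of the 30 were higher in E79Q cells, against 9.62% of all genes, and none was lower. A lower genotype difference under CB-839 was called for 13, against 6.83% of all genes, among them PLK1 (difference -0.68, adjusted p = 5.52e-06) and CDC20 (difference -0.62, adjusted p = 2.22e-05). Of 30 replication genes 13 were lower and 2 higher, the 6 subunits of the MCM helicase being lower at log2 fold changes between -0.29 for MCM2 and -0.19 for MCM3. The count lower was 7, 7 and 6 without WT library 3, E79Q library 2 and E79Q library 3. CCNE2, a G1/S cyclin, was higher (0.44).

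Chemokines that attract neutrophils and other myeloid cells were higher in E79Q cells. Of 17 listed genes only 6 passed the filter on low counts, and 5 of them were higher, against 8.3% of all genes, so the count says nothing of the 11 others. CXCL8, interleukin 8, was at 7.0, 6.46 and 6.98 CPM in WT and 24.4, 25.3 and 23.5 in E79Q libraries (3.58-fold). CCL20, the ligand of CCR6, was at 6.15, 7.72 and 7.49 CPM in WT and 22.7, 20.2 and 20.9 in E79Q libraries (1.58, SE 0.12, adjusted p = 8.75e-11), CXCL1 at 17.4, 21.5 and 24.3 and 47.8, 45.8 and 46.3 (1.15, SE 0.10), and CXCL3 and CXCL2 were below 5 CPM and differed by 1.72 and 0.84. The groups did not overlap for any of the 5, as for 17% of all genes in this direction. CXCL16 was at 5.08, 4.23 and 5.63 CPM in WT and 5.65, 4.68 and 5.74 in E79Q libraries (0.11, adjusted p = 0.732). The genotype difference of CCL20 was -0.24 without the drug (adjusted p = 0.176) and exceeded it by 1.82 under CB-839 (SE 0.17, adjusted p = 1.47e-08), and that of CXCL8 by 0.99 (SE 0.13, adjusted p = 4.64e-06).

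NF-kB is the transcription factor family that induces many chemokines and its own inhibitors. Of 21 subunits and feedback genes 14 were higher and 2 lower (median 0.48). TNFAIP3, the ubiquitin-editing inhibitor A20, was at 27.2, 30.2 and 24.8 CPM in WT and 59.3, 62.0 and 62.4 in E79Q libraries (1.16, SE 0.073), and differed by 0.12 without the drug (difference 1.04, adjusted p = 6.01e-08). The subunits RELB (0.85) and NFKB2 (0.72) were higher, RELA was not called (0.0041, adjusted p = 0.98), and the inhibitor NFKBIA differed by 0.48. TRAF1 (1.57), an adaptor of TNF receptors, and ICAM1 (0.65), a leukocyte adhesion receptor, were higher. BCL3 (-0.81) and TNFAIP2 (-0.63) were lower. Of 21 cytokines and growth factors of blood cells, 10 were higher and 1, IL24, was lower (-0.61). IL1A was at 63.5, 71.6 and 58.7 CPM in WT and 108, 112 and 107 in E79Q libraries (0.76), LIF at 61.1, 56.5 and 62.5 and 99.2, 97.5 and 97.7 (0.71), and TNFSF15, also called TL1A, at 6.49, 5.77 and 6.02 and 17.9, 14.6 and 15.9 (1.40). IL6 (2.71, 2.23 and 1.74 CPM in WT and 3.93, 4.18 and 5.35 in E79Q libraries, 1.02), CSF2 (1.20) and CSF3 (1.5) were higher from low levels. CSF1 was not called (-0.026, adjusted p = 0.924).

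The kB site, read as GGG, any 3 bases and TTCC on either strand, was in 9 of the 16 chemokine and NF-kB genes that were higher under CB-839 and had a promoter in the table (56.2%), in 2 of the 7 others (28.6%) and in 5.6% of all promoters. Shown are TNFAIP3 (chr6:137867009-137867258, plus strand), which holds 2 matches, and CCL20 (chr2:227813592-227813841, plus strand), all on the strand opposite to the gene.
TNFAIP3: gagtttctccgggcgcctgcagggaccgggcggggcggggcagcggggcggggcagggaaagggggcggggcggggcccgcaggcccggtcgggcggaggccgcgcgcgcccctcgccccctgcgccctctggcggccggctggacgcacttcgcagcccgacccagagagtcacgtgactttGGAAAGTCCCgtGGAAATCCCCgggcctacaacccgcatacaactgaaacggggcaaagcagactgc
CCL20: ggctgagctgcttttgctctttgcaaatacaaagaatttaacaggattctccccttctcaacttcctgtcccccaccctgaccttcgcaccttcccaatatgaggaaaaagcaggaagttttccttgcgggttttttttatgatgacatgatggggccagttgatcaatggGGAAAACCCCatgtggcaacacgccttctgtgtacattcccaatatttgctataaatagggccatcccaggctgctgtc

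Of 23 ligands of the EGF receptor and feedback genes of the MAPK pathway 13 were higher and 4 lower. HBEGF, a ligand, was at 37.2, 36.9 and 39.5 CPM in WT and 91.4, 79.5 and 77.2 in E79Q libraries (1.12, SE 0.071), and DUSP4, a phosphatase of ERK, at 26.2, 31.7 and 32.2 and 80.5, 72.2 and 77.0 (1.35, SE 0.079). DUSP6 (0.84), SPRY2 (0.65), SPRY4 (0.80), ETV4 (0.52) and ETV5 (0.91) were higher, whereas the receptor EGFR was at 643, 620.3 and 588 CPM in WT and 609, 648 and 619 in E79Q libraries. NRG1, a ligand of ERBB3, was lower (-0.66). Of 18 immediate early factors KLF4 (1.34) and FOSL1 (0.44) were higher, against 8.3% of all genes, and none was lower. Without the 4 libraries that followed GC content 5 were higher and 1 was lower.

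Of 23 interferon-stimulated genes 2 were higher and 3 lower, against 8.3% and 6.72% of all genes, and 3 called in all without WT library 2 or without E79Q library 1. IFITM3, which blocks virus entry, was lower (-0.42, SE 0.077). Of 18 genes of antigen presentation on MHC class I 4 were higher and 1 was lower. ERAP1, which trims peptides (0.41), and CALR, a chaperone (0.26), were among those higher, and NLRC5, the coactivator of that pathway, was lower (-0.61). CD274, which encodes PD-L1, was at 10.3, 12.6 and 10.8 CPM in WT and 19.4, 18.8 and 16.4 in E79Q libraries (0.70, SE 0.12, adjusted p = 0.000109). VSIR was at 60.3, 59.2 and 63.9 and 18.8, 17.1 and 22.0 CPM (-1.66, SE 0.084). Of 9 checkpoint ligands 2 were higher and 3 lower, and 2 higher and 1 lower without E79Q library 2.

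Genes of lipid synthesis were lower in E79Q cells. Of 30 tested genes of cholesterol and fatty acid synthesis 21 were lower and none higher (median -0.31), and 15 were lower and none higher without the drug. SREBF1, the transcription factor of fatty acid genes, was at 132, 132 and 139 CPM in WT and 46.2, 44.1 and 45.0 in E79Q libraries (-1.58, SE 0.063, adjusted p = 3.01e-16). SCD was at 656, 674 and 693 CPM in WT and 201, 206 and 197 in E79Q libraries (-1.74, SE 0.046, adjusted p = 2.97e-20), FASN, the fatty acid synthase, at 1688, 1621 and 1718 and 1087, 1087 and 1144 (-0.60, SE 0.054), and ACACA, which supplies its malonyl-CoA, differed by -0.54. Of the cholesterol enzymes, DHCR7 differed by -0.54, LSS by -0.50 and HMGCS1 by -0.30. The genotype difference was more negative under CB-839 than in untreated cells for SREBF1 (difference -0.78, SE 0.086, adjusted p = 2.82e-07) and for SCD (difference -0.56, SE 0.063, adjusted p = 3.51e-07). In untreated cells SCD averaged 1298 ± 9.53 CPM in WT and 573 ± 19.9 in E79Q cells.

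Of 17 genes of sterol efflux and PPAR-driven lipid use 4 were higher and 3 lower. ABCA1, a target of the oxysterol-sensing liver X receptor, was at 24.7, 24.1 and 22.3 CPM in WT and 5.93, 6.64 and 5.74 in E79Q libraries (-1.96, SE 0.13), and MYLIP, a ubiquitin ligase, at 12.0, 12.1 and 13.5 and 3.79, 6.52 and 5.68 (-1.22, SE 0.14). Among those higher, CPT1A, which admits fatty acids into mitochondria, was at 4.40, 6.46 and 6.81 CPM in WT and 15.1, 14.8 and 13.9 in E79Q libraries (1.31, SE 0.13), and ACADVL, of the first oxidation step, at 155, 152 and 155 and 238, 225 and 231 (0.59, SE 0.048). The difference of ANGPTL4 exceeded that of untreated cells by 2.24 (SE 0.54, adjusted p = 0.00504) and that of CPT1A by 1.22 (SE 0.19, adjusted p = 3.94e-05).

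The sterol regulatory element, TCACNCCA on either strand, was in 2 of the 15 cholesterol and fatty acid genes that were lower and had a promoter in the table (13.3%), in 1 of the 9 others (11.1%) and in 3.2% of all promoters. The 2 were SREBF2, the transcription factor of cholesterol genes, at -0.32 (chr22:41832855-41833104, plus strand), and MVK, mevalonate kinase, at -0.48 (chr12:109573544-109573793, plus strand). MVK was not called without E79Q library 3 (adjusted p = 0.0518).
SREBF2: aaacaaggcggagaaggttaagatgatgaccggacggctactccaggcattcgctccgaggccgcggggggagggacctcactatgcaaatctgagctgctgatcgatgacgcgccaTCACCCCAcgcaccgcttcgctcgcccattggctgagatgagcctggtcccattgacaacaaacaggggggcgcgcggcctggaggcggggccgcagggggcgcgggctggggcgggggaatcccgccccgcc
MVK: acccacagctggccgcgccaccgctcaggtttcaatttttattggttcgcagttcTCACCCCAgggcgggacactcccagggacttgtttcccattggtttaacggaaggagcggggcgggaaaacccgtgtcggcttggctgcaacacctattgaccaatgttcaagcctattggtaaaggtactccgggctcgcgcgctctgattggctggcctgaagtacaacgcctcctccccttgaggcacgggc

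Of 29 glycolytic and hypoxia-induced genes 8 were lower and 4 higher. LDHA, lactate dehydrogenase, was at 1021, 1028 and 1052 CPM in WT and 758, 733 and 735 in E79Q libraries (-0.48, SE 0.036), and the glucose transporter SLC2A1 differed by -0.34 (SE 0.057). VEGFA, the vascular growth factor, was higher (0.53, SE 0.06), as was NDRG1 (0.42), and both had been lower in untreated E79Q cells (-0.56 and -1.48). Their differences of differences were 1.09 (adjusted p = 3.31e-10) and 1.90 (adjusted p = 1.48e-11). Of 13 mitochondrially encoded genes 1 was higher and 2 were lower, against 8.3% and 6.72% of all genes. Without the 4 libraries that followed GC content 1 was higher and 5 were lower. Of 33 nuclear subunits of the respiratory chain 4 were lower, against 6.72% of all genes, and none was higher. Without WT library 3, E79Q library 1 or E79Q library 2, 2 were lower. Of 6 metallothionein and zinc genes 2 were higher and 1 was lower, and MT2A alone was called without WT library 1 or E79Q library 1 (0.36, SE 0.074 with all 6 libraries).

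Keratins, the filament proteins of epithelia, were lower in 9 of 14 cases and higher in none (median -0.59). Without the drug 10 of the 14 were lower, against 10.1% of all genes, and none was higher (median -0.80). KRT5, of basal squamous cells, was at 1321, 1339 and 1430.3 CPM in WT and 723, 693 and 685 in E79Q libraries (-0.96, SE 0.061, adjusted p = 3.44e-12). Its partner KRT14 was at 28.6, 28.8 and 32.2 CPM in WT and 13.8, 13.2 and 14.2 in E79Q libraries (-1.12, SE 0.11), and KRT8, of simple epithelia, at 2559, 2566 and 2892 and 1463, 1357 and 1436 (-0.91, SE 0.066). KRT17 differed by -0.81 under CB-839 and by -1.38 without it, and the difference was 0.58 (SE 0.11, adjusted p = 0.000429). Squamous differentiation genes were lower in 10 of the 25 that passed the filter, of 36 listed, and higher in none (median -0.51). KLK10 was at 33.2, 30.8 and 32.3 CPM in WT and 7.79, 9.91 and 9.66 in E79Q libraries, KLK13 at 18.2, 20.1 and 17.6 and 5.93, 6.15 and 4.75, and S100A2 differed by -0.78 (SE 0.088). Without the drug 18 of those 25 were lower in E79Q cells and S100A2 differed by 0.049. A genotype difference that was higher under CB-839 was called for 8, while 2, S100A2 (-0.83) and SFN (-0.30), had a more negative one. Both the 18 and the 8 include SAA1, an acute-phase protein, and SLPI, a protease inhibitor, each at low levels. These counts are therefore not of squamous differentiation alone. The counts of 8 and 2 were 5 and 1 without untreated WT library 1 or without WT library 3 of the CB-839 group. The SFN call was lost in 8 of the 12 fits that left out 1 library, with adjusted p up to 0.134.

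Of 23 squamous transcription factors and Notch genes 9 were lower and 1, the ligand JAG1, was higher (0.65). TP63, the master factor of squamous epithelium, was at 227, 232 and 217 CPM in WT and 181, 184 and 165 in E79Q libraries (-0.35, SE 0.049). KLF5 (-0.49), JAG2 (-0.62) and NOTCH1 (-0.25) were lower. NOTCH3 was at 6.60, 6.46 and 4.62 CPM in WT and 3.72, 3.38 and 2.92 in E79Q libraries (-0.82), and its difference without the drug was -2.23, 1.41 away (adjusted p = 0.000172). EHF, an epithelial ETS factor, was at 43.6, 44.8 and 41.4 CPM in WT and 40.7, 44.2 and 40.8 in E79Q libraries (-0.045, adjusted p = 0.854), although it was lower in untreated E79Q cells (-1.25, difference 1.20, adjusted p = 6.15e-06). Of 8 IGF binding proteins and receptors 1 was higher and 3 were lower. IGFBP3 averaged 105 ± 3.29 CPM in untreated WT and 8.65 ± 1.07 in untreated E79Q cells, and 43.7 ± 3.67 and 12.2 ± 0.309 under CB-839, so that its difference was less negative by 1.76 (SE 0.14, adjusted p = 8.17e-10).

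Of 27 genes that mark the epithelial or mesenchymal state 9 were higher and 5 lower. VIM, vimentin, was at 25.1, 29.2 and 30.6 CPM in WT and 53.5, 54.0 and 60.6 in E79Q libraries (0.99, SE 0.077), less apart than in untreated cells, where it averaged 44.3 ± 2.40 and 176 ± 5.82 CPM (difference -1.01, SE 0.11, adjusted p = 1.24e-07). CDH2, N-cadherin, was higher (0.51) and CDH1, E-cadherin, lower, at 101, 95.7 and 94.4 CPM in WT and 73.3, 69.8 and 74.7 in E79Q libraries (-0.42, SE 0.054). LOX, which crosslinks collagen, was at 9.82, 9.26 and 9.12 CPM in WT and 27.0, 29.8 and 26.6 in E79Q libraries (1.56, SE 0.10). SNAI2 (-0.02, adjusted p = 0.874), TWIST1 (0.028, adjusted p = 0.925) and FN1 (0.076, adjusted p = 0.399) were not called.

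Matrix proteases and the plasminogen system were higher in 15 of 22 cases and lower in 4 (median 0.66). Without the drug 13 of the 22 were higher and 4 lower (median 0.43), against 9.62% and 10.1% of all genes. MMP1, a collagenase, was at 236, 230.4 and 246 CPM in WT and 559.9, 497 and 521 in E79Q libraries (1.15, SE 0.054), and PLAU, urokinase, at 95.3, 93.7 and 104 and 200.0, 190.0 and 200.1 (1.01). MMP14, of the cell surface, differed by 0.65 under CB-839 and by -0.045 without it. The MMP1 difference was smaller than in untreated cells (difference -0.80, SE 0.075, adjusted p = 1.91e-08), and that of MMP14 larger by 0.70 (SE 0.072, adjusted p = 8.25e-08). Inhibitor TIMP3 was lower (-0.75). Laminin chains LAMA3 (0.63) and LAMB3 (0.76) and the collagen receptor chain ITGA2 (0.92) were higher, among 9 of 18 integrins and laminins higher and 4 lower. Of 15 collagens 6 were higher and 1, COL12A1, was lower, at 38.6, 36.2 and 31.4 CPM in WT and 9.31, 7.75 and 10.1 in E79Q libraries. COL1A1 was at 4.06, 4.17 and 3.88 CPM in WT and 3.17, 3.01 and 3.20 in E79Q libraries (-0.37, adjusted p = 0.637). Of 16 YAP targets, ANKRD1 was at 109.7, 117 and 103 CPM in WT and 360.0, 356 and 359.9 in E79Q libraries (1.71, SE 0.071) and CTGF at 35.7, 39.1 and 37.7 and 98.0, 97.1 and 93.2 (1.36, SE 0.062), 5 in all being higher and 4 lower. Of 26 TGF-beta and WNT genes INHBA, the activin A chain, was the most changed, at 74.8, 72.5 and 65.5 CPM in WT and 179, 180.2 and 178 in E79Q libraries (1.34, SE 0.10).

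**Figure D4:**
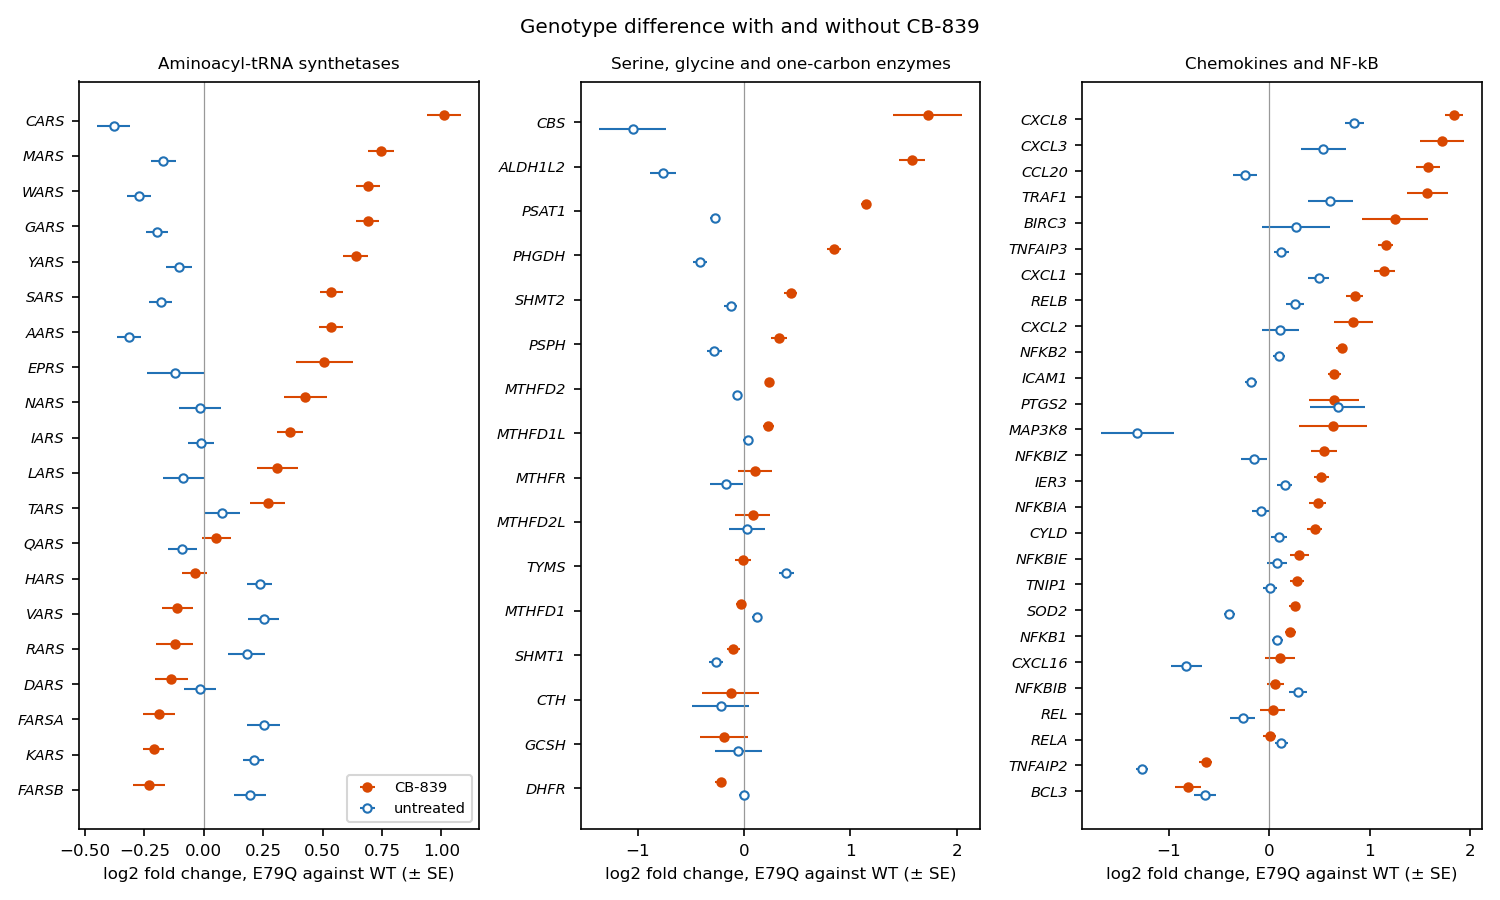
Log2 fold change of E79Q against WT with its standard error, under CB-839 (filled) and in untreated cells (open), for the aminoacyl-tRNA synthetases, the serine and one-carbon enzymes and the chemokine and NF-kB genes tested. CARS lies at 1.01 with the drug and -0.38 without it, and CCL20 at 1.58 and -0.24.

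The genotype difference under CB-839 alone was also tested against that in cells given CB-839 and 4 Gy. Of 15956 genes 172 (1.08%) were called, 114 (0.714%) with a higher and 58 (0.363%) with a lower difference in unirradiated cells, and 1523 passed an unadjusted p under 0.05. With total count scaling the split was 154 higher and 47 lower. The number called rested on single libraries, being 104 and 92 without E79Q library 1 or 2 of the CB-839 group and 107 and 104 without WT library 2 or 3 of the irradiated group. It was 40 when the 4 groups were fitted alone. The difference under CB-839 alone was higher by 1.53 for SLC6A9 (SE 0.21, adjusted p = 0.000104), 1.37 for CHAC1 (SE 0.21, adjusted p = 0.000342) and 0.67 for PSAT1 (SE 0.068, adjusted p = 1.7e-06). CHAC1 averaged 16.8 ± 2.68 CPM in WT and 28.6 ± 3.82 in E79Q cells with both treatments. Of the ATF4 list 5 of 24, of the synthetases 5 of 20 and of the chemokines 4 of 6 were called in this direction, against 0.714% of all genes. The chemokine count was 2 without 7 of the 12 libraries, and that of the synthetases was 2 or 3 without 5 of them. ELF3 and KLK10 were called the other way, at -1.13 (SE 0.16, adjusted p = 0.000104) and -1.22 (SE 0.13, adjusted p = 1.7e-06). ELF3 averaged 14.1 ± 0.495 CPM in WT and 7.18 ± 0.855 in E79Q cells after both treatments.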

How the data were processed

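RNA was sequenced in 24 libraries of SAS cells. The authors deposited raw read counts per gene, 1 column per sample, and per the submitters' processing notes STAR, HTSeq and the GRCh38 build were used. Versions, the annotation, trimming and the strand setting are not given in the labels. Without a stated strand setting, reads of overlapping genes cannot be told apart. This is not limited to the genes for which an overlap is given above. Another annotated gene on either strand also covers, for example, 40.5% of the exonic bases of DUSP6, 37.1% of CCNE2 and 31.1% of PLAU. For PYCR1, WIPI1 and NFE2L2 the shares are 29.7%, 28.1% and 20.9%. All 58735 gene IDs and positions matched GENCODE release 29. The gene lengths of the table were not used.

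The counts were analysed as deposited with edgeR 4.0.16 in R 4.3.3: TMM scaling, its default filter on low counts (15956 genes tested) and the quasi-likelihood test on all 24 libraries, with 1 mean per group and 16 residual degrees of freedom. Fitting all groups shares 1 estimate of the spread. SE was the absolute log2 fold change divided by the square root of the F statistic. All adjusted p-values are edgeR's with Benjamini-Hochberg adjustment over all genes tested. An exact permutation test of 3 against 3 libraries cannot go below p = 0.1 and was not used. The gene lists, and the choice of this comparison, were made with earlier results of these data known, so their counts are a description.

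Named genes were members of the lists or, outside them, among the 12 largest rises and 12 largest falls (8 each for differences of differences) whose log2 CPM averaged 1 or more and, for E79Q against WT, whose libraries did not overlap. Genes outside the lists and this rule are named only as members of a count. Promoter windows were the 250 bases before the RefSeq start. The scripts were tested on simulated counts with known changes. Alternatives were other scalings and filters, DESeq2 1.42.0, limma-voom (limma 3.58.1), a test against a 1.5-fold change, GC offsets (lowess span 0.3), a replicate block, the groups alone, and leaving out libraries. Some genes and 2 promoters are not reported here. The irradiated groups without the drug entered the fit but were not compared.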

Additional observations from a re-analysis of the deposited data

Results flagged for a closer look

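Among the genes whose difference of differences is given with its value in the text, the E79Q minus WT difference itself differed between treatments for those below, which are not a ranking of all genes, by edgeR's quasi-likelihood test of the difference at a Benjamini-Hochberg adjusted p under 0.05. Each value is a difference of 2 log2 fold changes, that under CB-839 minus that without it. Above 0, that is with E79Q higher relative to WT under the drug than without it, these genes were, in descending order, SLC6A9 (3.16), CHAC1 (2.82), DDIT4 (2.35), ALDH1L2 (2.35), ANGPTL4 (2.24), SEL1L3 (2.12), NDRG1 (1.90) and CCL20 (1.82). Next came IGFBP3 (1.76), CDKN1A (1.72), TRIB3 (1.52), TXNIP (1.51), DDIT3 (1.49), HERPUD1 (1.45), PSAT1 (1.43) and NOTCH3 (1.41). Then followed CARS (1.39), XBP1 (1.26), PHGDH (1.26), CPT1A (1.22), EHF (1.20), HMOX1 (1.17), SLC7A11 (1.12) and ATF4 (1.10). The remaining positive values were those of VEGFA (1.09), TNFAIP3 (1.04), CXCL8 (0.99), HSPA5 (0.99), MMP14 (0.70), KRT17 (0.58) and FTH1 (0.55). The values were below 0 for RGS4 (-2.62), COL1A1 (-1.58), VIM (-1.01), ATF5 (-0.89), S100A2 (-0.83), MMP1 (-0.80), SREBF1 (-0.78), GPX2 (-0.78) and PLK1 (-0.68), and also for AKR1C1 (-0.64), CDC20 (-0.62), SCD (-0.56), KARS (-0.42), KEAP1 (-0.30) and SFN (-0.30). The values of KEAP1, SFN and COL1A1 lost their call in 7, 8 and 10 of the 12 fits that left out 1 library.

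Against the irradiated CB-839 groups, the genotype difference under CB-839 alone was higher for SLC6A9 (1.53), CHAC1 (1.37) and PSAT1 (0.67) and lower for ELF3 (-1.13) and KLK10 (-1.22) by the same test. Groups of 3 libraries are too small for a search for single libraries that stand apart. The source of these differences was not tested.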

How the results depend on the processing

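With a test against a 1.5-fold change in place of any change, 196 of the 2396 genes called between the genotypes under CB-839 were called, 293 in place of 3149 between the untreated genotypes, 123 in place of 2280 for the difference from untreated cells, and 1 in place of 172 for the difference from irradiated CB-839 cells. With offsets for each library's trend along GC content the difference from untreated cells gave 3490 calls and that from irradiated CB-839 cells 292. With these offsets and the replicate block together the latter gave 275, and 40 when its 4 groups were fitted alone. When 1 library was left out, that difference gave 92 to 252 calls, the highest without irradiated CB-839 E79Q library 1, and the calls numbered 1729 to 2067 under CB-839, 1797 to 2115 for the difference from untreated cells and 2346 to 2576 in untreated cells. The labels number the replicates in each group but do not say whether the numbers pair the samples. Deviations of same-numbered WT and E79Q libraries under CB-839 correlated at -0.042, 0.022 and -0.028 across genes, and 4 of the 24 libraries correlated best with their own number. These values cannot exclude a pairing, since the deviations also hold each library's trend along GC content. The replicate block gave 2222 calls under CB-839, 2092 for the difference from untreated cells, 141 for that from irradiated CB-839 cells and 2975 in untreated cells. Other scalings, filters on low counts, DESeq2 and limma-voom kept each of these 4 counts within 1.5 times. Of 278 results on single genes named in the text, 262 kept their direction and their side of the threshold in every alternative other than the 1.5-fold test, and none reversed. With total count scaling the calls of AKR1A1 (adjusted p = 0.0708) and PDHB (adjusted p = 0.0579), and those of the differences of differences of COL1A1 (adjusted p = 0.0553), KEAP1 (adjusted p = 0.0679) and SFN (adjusted p = 0.0792), were lost. Of the 251 that were called, 117 were also called by the 1.5-fold test. In the 47 gene lists, 45 counts under CB-839 moved by over 1.5 times with the 1.5-fold test.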

Other observations

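Several genes outside the groups above, or named there only by count, showed large genotype differences under CB-839. MMP10, a stromelysin, was at 0.339, 0.400 and 0.507 CPM in WT and 2.62, 2.58 and 2.37 in E79Q libraries (2.58, SE 0.34). F2RL2, a protease-activated receptor, was at 3.05, 4.46 and 4.11 and 13.4, 13.2 and 11 (1.69, SE 0.15). ZEB1, a repressor of epithelial genes, was at 0.790, 0.858 and 0.844 and 1.79, 2.21 and 2.21 (1.32, SE 0.25).

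RGS4, which shortens G protein signalling, had a genotype difference that was -2.62 from the untreated one (SE 0.29, adjusted p = 2.55e-07). It averaged (± SD, n = 3) 1.69 ± 0.157 CPM in untreated WT and 5.12 ± 0.665 in untreated E79Q cells, and 2.81 ± 0.602 and 1.39 ± 0.351 under CB-839.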
